A study of Mus musculus with 32 samples.

Results

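The 9 genes Ptgs1, Ptgs2, Ptges, Ptger4, Pla2g4a, Alox5, Alox5ap, Lta4h and Hpgds of the prostaglandin and leukotriene pathway were followed among 45706 genes of an RNA sequencing table. They were chosen by name, as enzymes, an enzyme partner and a receptor of the pathway. The table covers 32 libraries of BV-2 cells, an immortalised mouse microglial line, in 8 groups of 4. LPS, a component of bacterial walls that activates macrophages, was given at 10 ng/ml for 24 h, and other cells got vehicle (VEH). The cells were also transfected with a scramble negative control or with a mimic of miR-146a-5p, miR-7a-5p or miR-29a-3p. A mimic is a synthetic RNA that acts as the mature microRNA, so every group, controls included, was transfected and all are wild type cells of 1 line. Groups are named by treatment and mimic, such as VEH_scramble or LPS_miR-7a. The labels place the LPS treatment before the transfection, which the study describes differently. All 3 mimics of a treatment were set against one set of 4 scramble libraries, so these comparisons are not independent.

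Eicosanoids are lipid mediators made from arachidonic acid, which cytosolic phospholipase A2 (Pla2g4a) frees from membranes. In one branch the cyclooxygenases Ptgs1 and Ptgs2 make prostaglandin H2, which Ptges turns into prostaglandin E2 and Hpgds into prostaglandin D2, and Ptger4 is a receptor for prostaglandin E2. In the other branch 5-lipoxygenase (Alox5), with its activating protein Alox5ap, makes leukotriene A4, and Lta4h converts it to leukotriene B4. Ptgs1 is usually described as the constitutive cyclooxygenase and Ptgs2 as the inducible one in macrophages.

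The mature sequences of the 3 mimicked microRNAs, from RefSeq on GRCm38.p6, are shown because the seed (bases 2 to 8, in capitals) is the part that pairs with target transcripts.
mmu-miR-7a-5p: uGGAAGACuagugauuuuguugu
mmu-miR-29a-3p: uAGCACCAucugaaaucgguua
mmu-miR-146a-5p: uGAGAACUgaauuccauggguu
Matches to these seeds were searched in the longest annotated 3′ UTR of each of the 9 genes. Only Ptgs2 and Ptges held one, a single match to the miR-7a seed in each, at bases 1114 to 1120 of the 2445-base UTR of Ptgs2 and at bases 1100 to 1106 of the 3106-base UTR of Ptges. The match is in capitals below, with the bases around it, and in both an A follows it.
Ptgs2: aatattgatatGTCTTCCagcccattgaac
Ptges: gtccaaatcctGTCTTCCacgtggcgattc
Of 10619 genes tested with a 3′ UTR, 14.1% held a miR-7a seed match, 15.8% one to miR-29a and 12.6% one to miR-146a. A match of these letters is a description of the sequence and no evidence of pairing.

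Estimated counts had to be restored before use because the deposited table lost its decimal marks. Restored library totals ran from 1203287 counts in replicate 4 of VEH_miR-7a to 21375711 in replicate 4 of LPS_scramble. Small structural RNA genes held 35.0% to 39.01% of the counts in replicates 2, 3 and 4 of VEH_miR-7a and 2.61% to 18.97% in the other 29 libraries. Of 12 markers of microglia and macrophages, 11 averaged at least 1 CPM (counts scaled to a common library size), with a summed level of 2952 to 5085 CPM under vehicle and 2033 to 3735 CPM under LPS. Cx3cr1 averaged 0.795 CPM. Summed markers of astrocytes, neurons, endothelium and mast cells reached at most 3.39 CPM in any library, and Cma1 was at 0 in all of them, while those of oligodendrocytes reached 17.4 CPM. In these bulk samples fewer cells and less RNA per cell cannot be told apart.

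Of the 9 genes, 8 passed the filter on low counts over all libraries. Scaled to exon length, Alox5ap was the most abundant of them in VEH_scramble with 92.1 ± 10.7 CPM per kb, followed by Ptgs1 with 50.3 ± 3.94 (SD, n = 4 each). Lta4h (16.9 ± 2.55), Hpgds (14.5 ± 3.59) and Pla2g4a (7.56 ± 2.39 CPM per kb) came next (SD, n = 4 each). Ptger4 stood at 4.91 ± 1.27, Ptgs2 at 1.61 ± 0.816 and Ptges at 0.379 ± 0.186 CPM per kb (SD, n = 4 each). Alox5 was not detected in any of the 16 vehicle libraries. It had 1 to 2 estimated counts in 6 LPS libraries and none in the others, where 3 counts correspond to 0.133 to 3.72 CPM over all libraries, and no fold was computed for it. BV-2 cells held transcripts of Alox5ap and Lta4h, on either side of Alox5, with Alox5 itself at or below the detection limit.

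**Figure D1:**
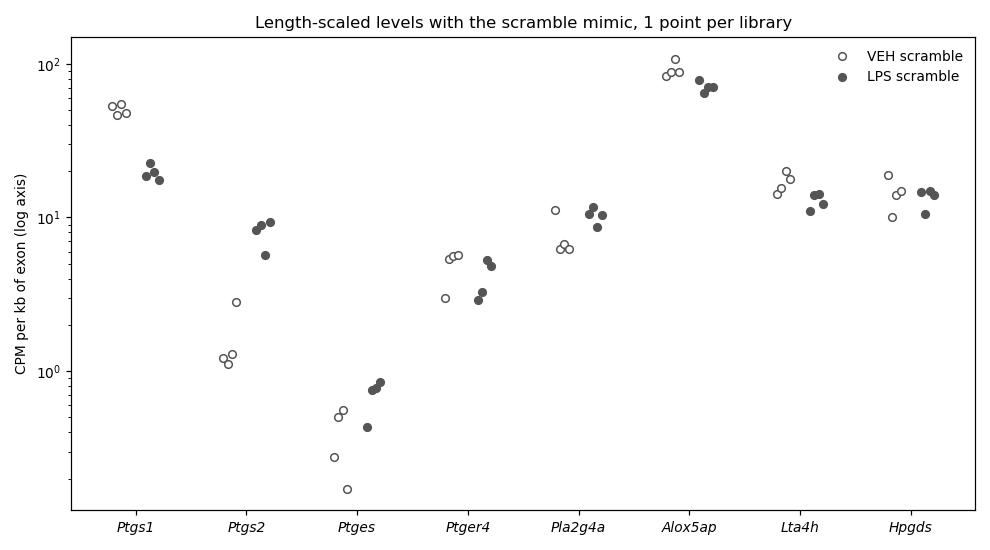
Length-scaled levels (CPM per kb of exon, log axis) of the 8 genes that passed the filter in the 4 VEH_scramble (open) and 4 LPS_scramble (filled) libraries. Alox5ap and Ptgs1 lie highest under vehicle and Ptges lowest, and Ptgs1 and Ptgs2 lie closer to each other under LPS.

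The first question was how LPS changed these genes with the scramble control. The cyclooxygenase transcripts moved in opposite directions. Ptgs1 had 205, 180, 212 and 185 CPM in the VEH_scramble libraries and 72.0, 87.2, 76.7 and 68.5 CPM in LPS_scramble, with no overlap. It fell 2.54-fold (log2 fold change -1.34, SE 0.14, adjusted p = 0.000107 by limma voom over 12268 genes). Ptgs2 had 5.55, 5.12, 5.90 and 12.97 CPM under vehicle and 38.2, 40.9, 26.3 and 42.6 CPM under LPS, so the lowest LPS library was above the highest vehicle one. It rose 4.90-fold (log2 2.29, SE 0.30, limma adjusted p = 0.00054).

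The ratio of Ptgs2 to Ptgs1 within a library, both per kb, does not depend on how libraries are scaled and was computed after the values were seen. It was 0.0325 ± 0.0180 in VEH_scramble and 0.416 ± 0.0994 in LPS_scramble (SD, n = 4 each), with no overlap. It was 0.0993 ± 0.0399 in LPS_miR-7a, 0.277 ± 0.103 in LPS_miR-29a and 0.251 ± 0.136 in LPS_miR-146a (SD, n = 4 each). Ptgs1 transcripts were the more abundant per length in every library, as the highest ratio was 0.527.

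Ptges, the inducible prostaglandin E synthase, was low throughout. It had 1.08, 1.99, 2.21 and 0.677 CPM in VEH_scramble, from 6 to 9 counts a library, and 1.71, 2.97, 3.06 and 3.33 CPM in LPS_scramble, and the groups overlapped. Its rise passed the test (log2 1.23, SE 0.38, limma adjusted p = 0.0442) but not with the replicate number as a block (1.06, adjusted p = 0.156). It also did not pass without any 1 of the 4 LPS_scramble libraries or without replicate 1 or 4 of VEH_scramble (adjusted p 0.0527 to 0.190). Nor did it pass with no filter on low counts (1.23, adjusted p = 0.0838), by limma-trend (0.90, adjusted p = 0.133) or with each decimal mark placed at the level nearest to the gene's other libraries (1.21, adjusted p = 0.0615).

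The other 5 genes did not pass the test in this comparison. Pla2g4a had 71.1, 39.6, 42.8 and 39.7 CPM in VEH_scramble and 66.9, 75.1, 55.3 and 66.7 CPM in LPS_scramble (log2 0.49, SE 0.20, limma adjusted p = 0.117). Its replicate 1 under vehicle stood among the LPS values, and without that library the gene passed the test (0.70, adjusted p = 0.0105). Alox5ap (log2 -0.36, adjusted p = 0.0884) and Lta4h (-0.36, adjusted p = 0.122) had all LPS values below all vehicle values. Hpgds differed by -0.08 and Ptger4 by -0.19 on the log2 scale (limma adjusted p = 0.801 and 0.628).

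In all, 3 of the 8 genes tested were called in this comparison, 2 higher and 1 lower under LPS, where 17.7% of all genes tested were called. The median log2 change of the 8 was -0.13, against 0.01 over all genes tested. One fit over all 8 groups called 5 of the 8, and 2748 of 12235 genes in all (22.5%).

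With each of the mimics in place of the scramble, LPS was again compared with vehicle. Ptgs1 fell in all 4 backgrounds. In VEH_miR-7a it had 332, 276, 307 and 322 CPM, in LPS_miR-7a 106, 141, 113 and 126 CPM (log2 -1.38, SE 0.13, limma adjusted p = 0.000179). In VEH_miR-29a it had 335, 368, 377 and 272 CPM and in LPS_miR-29a 75.3, 88.9, 62.3 and 54.0 CPM, a 4.85-fold fall (log2 -2.28, SE 0.17, limma adjusted p = 8.54e-06). In VEH_miR-146a it had 248, 222, 287 and 209 CPM and in LPS_miR-146a 109, 131, 111 and 79.1 CPM (log2 -1.16, SE 0.16, limma adjusted p = 0.00125). The vehicle and LPS values did not overlap in any of the 4 backgrounds, and these 4 calls held without each library in turn.

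The log2 change of Ptgs2 was smaller with each mimic than with the scramble, and these differences in response did not pass their own tests. With miR-29a it went from 6.13, 7.50, 10.01 and 13.997 CPM to 36.2, 17.3, 21.9 and 15.05 CPM (log2 1.09, SE 0.32, limma adjusted p = 0.0263). With miR-146a it went from 11.8, 18.7, 10.8 and 11.1 CPM to 26.1, 30.4, 19.6 and 42.1 CPM (log2 1.07, SE 0.27, limma adjusted p = 0.0421). With miR-7a it went from 4.40, 5.58, 7.62 and 8.68 CPM to 17.4, 13.01, 7.18 and 18.8 CPM, which overlapped and did not pass (log2 1.17, SE 0.49, limma adjusted p = 0.198). Replicate 3 of LPS_miR-7a, at 7.18 CPM, was within the vehicle range, and without it the rise passed (1.52, adjusted p = 0.0334). The rise with miR-7a also passed with the replicate number as a block (1.23, adjusted p = 0.0201). The miR-29a call was lost without replicate 3 of LPS_miR-29a or replicate 1, 2 or 3 of VEH_miR-29a (adjusted p 0.0592 to 0.0744). The miR-146a call was lost without replicate 1, 2 or 4 of LPS_miR-146a or replicate 1, 3 or 4 of VEH_miR-146a (adjusted p 0.0510 to 0.181). Both calls were also lost with decimal marks placed at the nearest level (adjusted p = 0.0649 with miR-29a and 0.0764 with miR-146a), although the counts of Ptgs2 itself were the same there.

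Ptges reached 1.89 to 2.99 CPM in LPS_miR-7a, while VEH_miR-7a had only 4 counts in its 4 libraries, 3 of them in replicate 1. The fitted log2 difference of 2.05 (SE 0.47, limma adjusted p = 0.0239) therefore depends on the small count added before taking logs. It was lost without replicate 2, 3 or 4 of LPS_miR-7a or replicate 1, 2 or 4 of VEH_miR-7a (adjusted p 0.0565 to 0.0930) and by limma-trend (2.45, adjusted p = 0.0522), and the gene was not tested at the stricter posterior minimum of 0.99 for a restored value. VEH_miR-7a also holds the 3 libraries with the high share of structural RNA, whose part in this was not tested beyond leaving those genes out, which gave 2.05 (adjusted p = 0.0223). With miR-29a and miR-146a the difference was 0.99 in each (limma adjusted p = 0.131 and 0.281).

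Pla2g4a passed the test with miR-29a, from 77.9, 55.6, 64.9 and 62.9 CPM to 103, 86.9, 88.1 and 91.5 CPM (log2 0.51, SE 0.13, limma adjusted p = 0.0162). The groups did not overlap, and the call was lost without replicate 2, 3 or 4 of VEH_miR-29a (adjusted p 0.0509 to 0.0562). Hpgds, the prostaglandin D synthase, passed with miR-146a, from 167, 173, 176 and 163 CPM to 101, 79.4, 124 and 123 CPM (log2 -0.71, SE 0.15, limma adjusted p = 0.0197). That call was lost without replicate 1 of LPS_miR-146a or replicate 2 or 3 of VEH_miR-146a (adjusted p 0.0535 to 0.0763).

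Alox5ap, Lta4h and Hpgds with miR-29a lay close to the threshold. They differed by -0.42, -0.37 and -0.50 on the log2 scale (limma adjusted p = 0.05, 0.0545 and 0.0599), and with the replicate number as a block all 3 passed, so that 6 genes were called (adjusted p = 0.0151, 0.0196 and 0.011). The block called 4558 of 12229 genes in all (37.3%), and one fit over all 8 groups called 6 of the 8 genes and 3478 of 12235 in all (28.4%). Without 1 library each, Hpgds passed when replicate 3 of LPS_miR-29a was left out (-0.62, adjusted p = 0.0347), Alox5ap without replicate 4 of LPS_miR-29a (-0.52, adjusted p = 0.0208) and Lta4h without replicate 1 of VEH_miR-29a (-0.44, adjusted p = 0.0404). Ptger4 differed by at most 0.19 on the log2 scale in either direction over the 4 backgrounds and was called in none of them.

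With miR-7a 2 of 8 genes were called, where 6.63% of all genes were. With miR-29a it was 3 of 8, against 26.3% of all genes, and with miR-146a 3 of 8, against 4.45% of all genes.

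**Figure D2:**
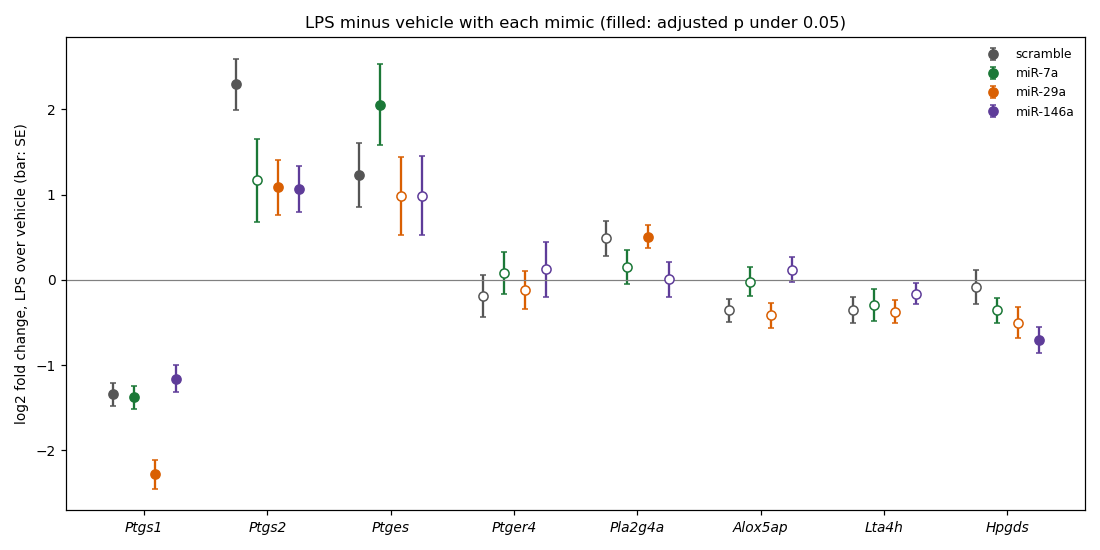
Log2 fold change of LPS over vehicle (y axis, bars are SE of the fit) for the 8 genes tested, with 1 colour for each mimic and filled points at an adjusted p under 0.05. Ptgs1 is below 0 with all 4 and Ptgs2 is above 0 with all 4, highest with the scramble (2.29).

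The interaction of LPS and mimic asked whether the response to LPS differed from that with the scramble. For Ptgs2 the response was different by -1.13 (SE 0.59) for miR-7a, -1.19 (SE 0.48) for miR-29a and -1.18 (SE 0.44) for miR-146a on the log2 scale (limma adjusted p = 0.923, 0.664 and 0.373). For Ptgs1 the difference in response with miR-29a was -0.93 (SE 0.22, unadjusted p = 0.000444, limma adjusted p = 0.304). With miR-7a that of Ptgs1 was -0.02 (SE 0.17, limma adjusted p = 0.99). Limma voom called 0 of the 8 genes in each interaction, as did limma-trend, and at an unadjusted p under 0.05 there were 0, 2 and 3. The 3 with miR-146a were Ptgs2, Hpgds (-0.61, SE 0.26, limma adjusted p = 0.399) and Alox5ap (0.48, SE 0.19, limma adjusted p = 0.387). Over all genes the shares called were 0.033% for miR-7a, 0.0162% for miR-29a, and 0.0243% for miR-146a. With decimal marks placed at the nearest level they were 6.48%, 3.7% and 4.12%, and Ptgs1 was called in the interaction with miR-29a (adjusted p = 0.0158). Ptgs1 was also called there with the replicate number as a block (-0.93, adjusted p = 0.0407), where 0.154% of all genes were.

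The mimics were then compared with the scramble within a condition. Under LPS miR-7a moved the cyclooxygenases in opposite directions. Ptgs2 had 17.4, 13.01, 7.18 and 18.8 CPM in LPS_miR-7a, all below the 26.3 to 42.6 CPM of LPS_scramble (log2 -1.47, SE 0.28, limma adjusted p = 0.0221). Ptgs1 had 106 to 141 CPM, all above the 68.5 to 87.2 CPM of LPS_scramble (log2 0.68, SE 0.13, limma adjusted p = 0.023). The Ptgs2 call was lost without replicate 2 of LPS_miR-7a or replicate 1, 2 or 4 of LPS_scramble (adjusted p 0.0511 to 0.0943). The Ptgs1 call was lost without replicate 2, 3 or 4 of LPS_miR-7a or replicate 1, 3 or 4 of LPS_scramble (adjusted p 0.0517 to 0.1002). Ptges, the other gene with a miR-7a seed match, differed by -0.23 (SE 0.24, limma adjusted p = 0.679) under LPS. In this comparison 2 of 8 genes were called, where 2.71% of all genes were.

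Under LPS Pla2g4a had 86.9 to 103 CPM with miR-29a, above the 55.3 to 75.1 CPM of LPS_scramble (log2 0.49, SE 0.12, limma adjusted p = 0.0452), 1 of 8 genes called against 4.85% of all genes. This call was lost without replicate 1, 3 or 4 of LPS_miR-29a or of LPS_scramble (adjusted p 0.0787 to 0.130), with no filter on low counts (0.47, adjusted p = 0.088) and in one fit over all 8 groups (0.49, adjusted p = 0.121). Ptgs2 was lower by 0.80 on the log2 scale (SE 0.24) without passing (limma adjusted p = 0.0844), and passed with the replicate block (-0.81, adjusted p = 0.0411) and without replicate 1 of LPS_miR-29a (-0.98, adjusted p = 0.0457). With miR-146a limma voom and limma-trend called 0 of 8 genes, where 2.24% of all genes were called by limma voom, and 1 gene had an unadjusted p under 0.05. That gene was Ptgs1 (log2 0.51, SE 0.15, limma adjusted p = 0.1), which passed with the replicate block (0.50, adjusted p = 0.0112) and without replicate 4 of LPS_miR-146a (0.61, adjusted p = 0.0401).

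Over all genes the replicate block raised the calls under LPS from 353 to 1173 for miR-7a, from 642 to 1290 for miR-29a and from 283 to 1287 for miR-146a.

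Under vehicle Ptges was too low for the pairwise tests, which left 7 of the 9 genes. It had 3, 0, 1 and 0 counts in VEH_miR-7a, or 0.528, 0, 0.586 and 0 CPM, and these did not overlap with the 0.677 to 2.21 CPM of VEH_scramble. In those VEH_miR-7a libraries 3 counts correspond to 0.528 to 3.72 CPM, and 3 of them have the high share of structural RNA, whose part in this was not tested. One fit over all 8 groups, which kept the gene, gave -1.08 (adjusted p = 0.476). Ptgs2, which also holds a miR-7a seed match, differed by -0.39 (SE 0.42, limma adjusted p = 0.733) under vehicle. Hpgds had 167, 173, 176 and 163 CPM in VEH_miR-146a, above the 64.6 to 121 CPM of VEH_scramble (log2 0.93, SE 0.19, limma adjusted p = 0.0393), 1 of 7 genes called against 1.64% of all genes. Leaving out any 1 of the 4 VEH_miR-146a libraries or replicate 2, 3 or 4 of VEH_scramble lost this call (adjusted p 0.0527 to 0.135). Ptgs1 lay above all VEH_scramble libraries in every library of VEH_miR-7a (log2 0.68, SE 0.14, limma adjusted p = 0.101) and of VEH_miR-29a (0.79, SE 0.16, adjusted p = 0.143). With both of these mimics limma voom and limma-trend called 0 of 7 genes, 2 had an unadjusted p under 0.05, and of all genes limma voom called 0.0452% with miR-7a and 0.00859% with miR-29a. These small shares depend on the processing, as one fit over all 8 groups called 1.35% with miR-7a and 0.727% with miR-29a, and marks placed at the nearest level 5.9% and 3.17%, and both of these called Ptgs1 with each mimic. The replicate block called 2.65% with miR-7a and 0.533% with miR-29a. Among them was Ptgs1 with each mimic (0.68, adjusted p = 0.034 and 0.80, adjusted p = 0.038).

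**Figure D3:**
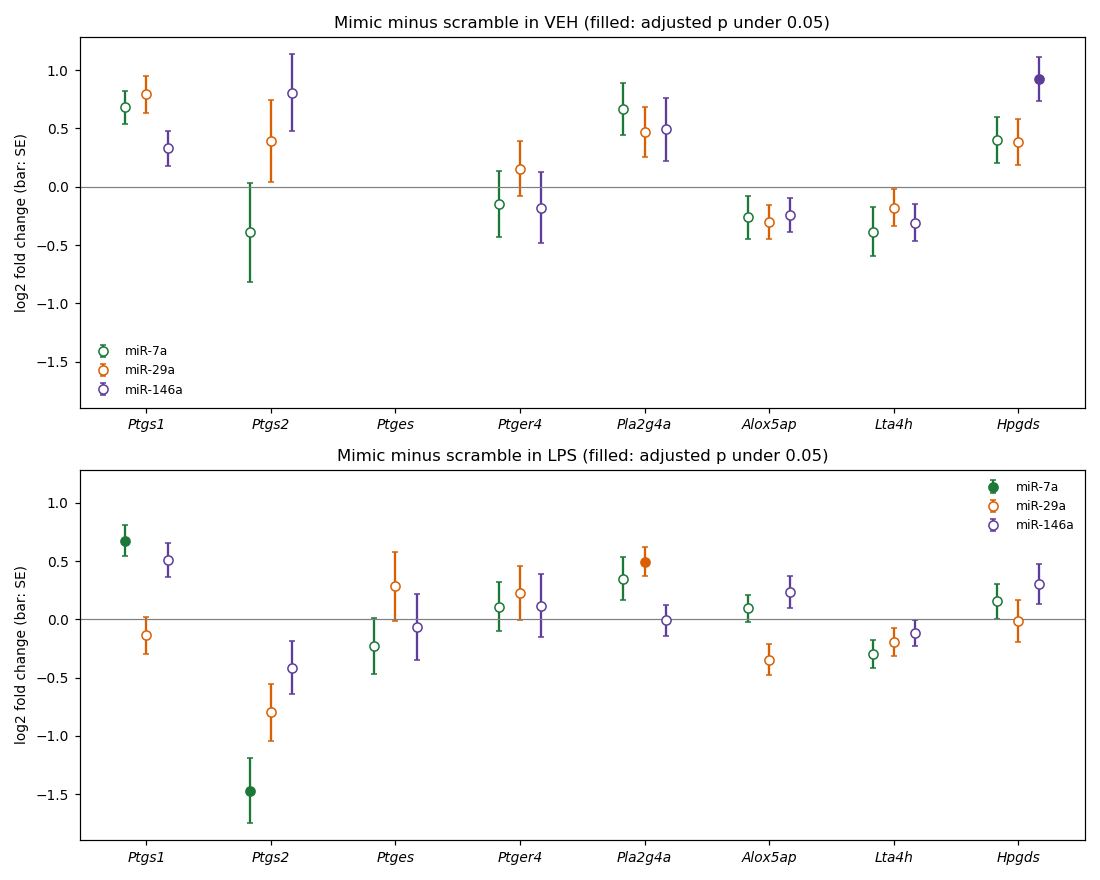
Log2 fold change of each mimic over the scramble (y axis, bars are SE of the fit) under vehicle (upper panel) and LPS (lower panel), filled at an adjusted p under 0.05. Filled points are Hpgds with miR-146a under vehicle (0.93), and under LPS Ptgs1 (0.68) and Ptgs2 (-1.47) with miR-7a and Pla2g4a with miR-29a (0.49).

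**Figure D4:**
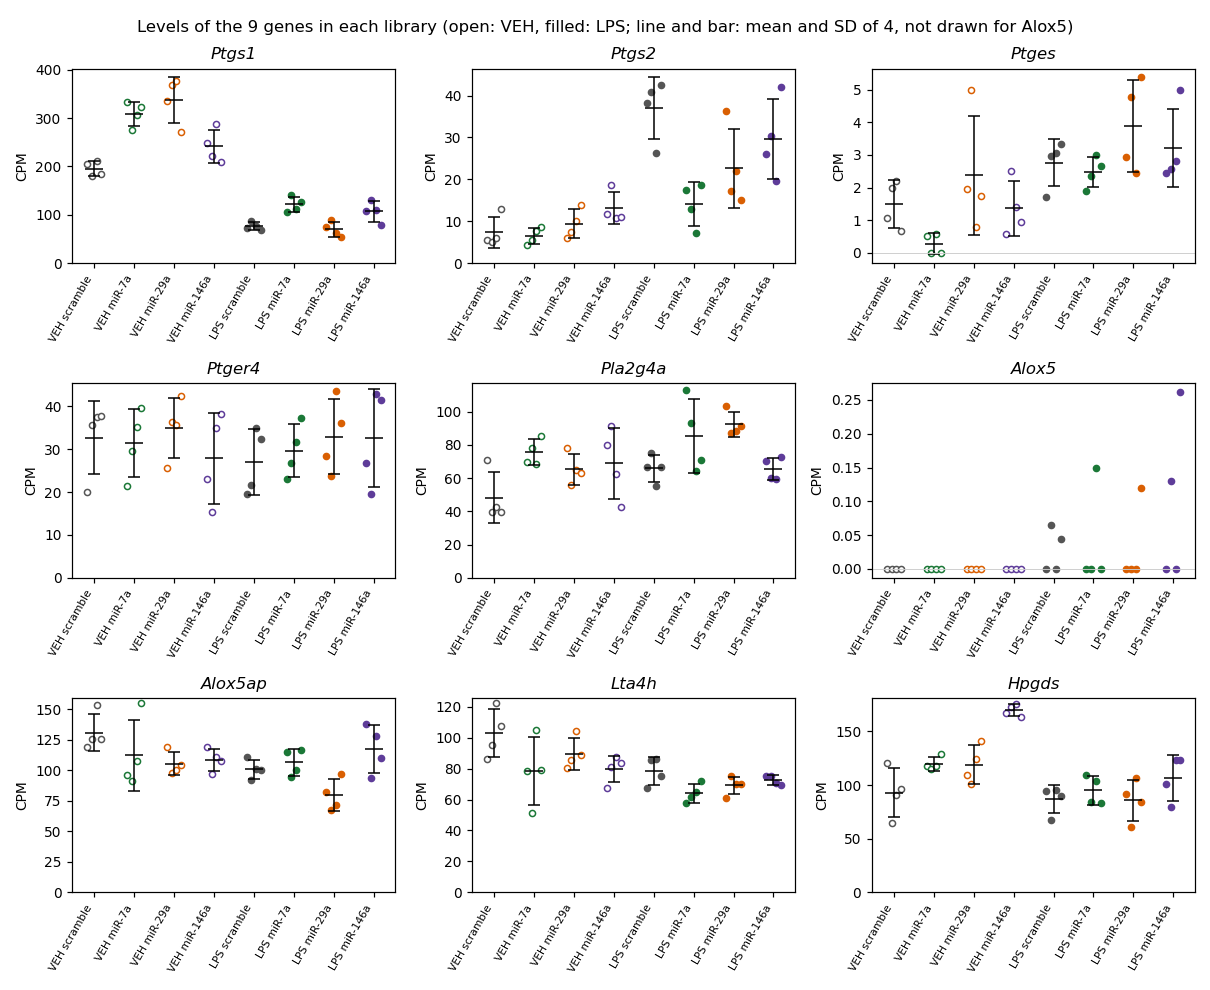
CPM (y axis) of the 9 genes in each of the 32 libraries by group, with the group mean and SD for all but Alox5. Ptgs1 separates vehicle from LPS in every background, VEH_miR-146a stands highest for Hpgds at 163 to 176 CPM, and Alox5 stays at or under 0.262 CPM.

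Ordered by group mean, Ptgs1 ran from 338 ± 47.6 CPM in VEH_miR-29a and 309 ± 24.7 in VEH_miR-7a to 76.1 ± 8.13 in LPS_scramble and 70.1 ± 15.3 in LPS_miR-29a (SD, n = 4 each), and within each of these neighbouring pairs the libraries overlapped. Ptgs2 ran from 37.0 ± 7.38 CPM in LPS_scramble to 6.57 ± 1.93 in VEH_miR-7a (SD, n = 4 each). Ptger4 group means lay between 27.1 and 34.9 CPM and those of Lta4h between 64.0 and 103 CPM.

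Over the 8 group means of log2 CPM, the genes most like Ptgs1 among 12235 were Cacna1b (Pearson r = 0.988) and Mgl2 (0.981), and those most like Ptgs2 were Srp72 (0.981) and Hdlbp (0.979). For Hpgds they were Col4a3bp (0.989) and RP23-155F13.3 (0.986), for Alox5ap Arfgap1 (0.989) and Stat5b (0.981). They were Gm37354 (0.983) and Bach2os (0.980) for Ptges, Srcin1 (0.921) and Gm16537 (0.917) for Ptger4, Tomm70a (0.973) and Erlin1 (0.971) for Pla2g4a, and Eif3h (0.983) and Use1 (0.979) for Lta4h. These are descriptions over 8 points that share their libraries, picked as the highest of many.

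Among 57 other genes of eicosanoid metabolism, 29 were tested for LPS with the scramble, of which 2 were higher and 7 lower, where 17.7% of all genes tested were called, and their median log2 change was -0.10. With LPS 3 of 31 were called with miR-7a, 11 of 30 with miR-29a and 3 of 30 with miR-146a, against 6.63%, 26.3% and 4.45% of all genes. Ltc4s, which makes leukotriene C4, fell from 21.1 ± 6.68 to 4.23 ± 1.54 CPM (SD, n = 4 each, log2 -2.23, limma adjusted p = 0.00089) and was lower with LPS in all 4 backgrounds. Mgst3, a microsomal glutathione transferase, fell by 1.94 on the log2 scale (limma adjusted p = 0.000519), and Daglb, a diacylglycerol lipase, by 1.26 (adjusted p = 0.000606), and both passed in all 4 backgrounds. Mgll, Pla2g15, Cyp4f18 and Ephx1 were also lower, and Acsl4 and Cyp4f16 higher. Of the 14 other receptors 2 or 3 could be tested, depending on the comparison, and none passed in any of the pairwise comparisons or interactions. With mimics under LPS, Mgll was higher with miR-7a (log2 1.17) and with miR-146a (1.33), Pla2g2d higher with miR-7a (2.05), Ephx1 lower with miR-29a (-1.18) and Abcc4 lower with miR-146a (-0.49), with limma adjusted p from 0.00185 to 0.0454. These were 2 of 34 genes tested with miR-7a, 1 of 32 with miR-29a and 2 of 32 with miR-146a, against 2.71%, 4.85% and 2.24% of all genes. Pla2g2d was low, with 2.46 ± 0.482 CPM in LPS_miR-7a and 0.620 ± 0.210 CPM in LPS_scramble (SD, n = 4 each).

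The promoters of the cyclooxygenases are shown because these genes moved in opposite directions with LPS. They run from 250 bases before to 50 after the start in RefSeq on GRCm38.p6, both on the plus strand, with motif matches in capitals. Ptgs2 is at chr1:150099781-150100080 and Ptgs1 at chr2:36230176-36230475.
Ptgs2: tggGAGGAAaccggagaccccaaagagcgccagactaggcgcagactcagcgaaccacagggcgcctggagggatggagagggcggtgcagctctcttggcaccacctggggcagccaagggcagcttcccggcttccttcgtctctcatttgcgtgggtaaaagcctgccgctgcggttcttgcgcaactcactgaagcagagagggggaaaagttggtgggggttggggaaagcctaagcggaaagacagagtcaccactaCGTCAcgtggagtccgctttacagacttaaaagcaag
Ptgs1: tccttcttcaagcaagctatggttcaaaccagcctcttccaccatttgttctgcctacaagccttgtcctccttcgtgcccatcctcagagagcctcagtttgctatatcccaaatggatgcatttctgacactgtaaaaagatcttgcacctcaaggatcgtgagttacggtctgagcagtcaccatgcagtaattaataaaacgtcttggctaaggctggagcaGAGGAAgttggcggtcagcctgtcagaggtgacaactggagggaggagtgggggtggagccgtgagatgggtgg
The motifs were searched on both strands. GAGGAA was in both promoters, at -247 to -242 in Ptgs2 and -24 to -19 in Ptgs1, as in 28.3% of 32851 promoters. TGACG was in that of Ptgs2 alone, on the minus strand at 14 to 18, as in 20.8% of promoters. There was no match in either window to TGANTCA (in 7.81% of promoters), to TATAAA (in 13.6%), to the core of the interferon-stimulated response element (in 3.44%) or to the NF-kappa-B consensus (in 8.46%).

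By GENCODE M21 on GRCm38, Ptgs1 is at chr2:36230426-36252272 (plus strand) and Ptgs2 at chr1:150100031-150108227 (plus strand). An annotated gene overlaps Ptgs1 (Gm43621), Ptger4 (Gm15937 and Ttc33), Pla2g4a (n-R5s219), Alox5ap (Gm19719 and n-R5s180) and Hpgds (Gm17147) on the opposite strand. Gm13400 overlaps Ptges on its own strand. These overlaps are of whole gene spans, and whether exons overlap was not checked. The strand setting of the counting is not given in the sources used here, so any reads from bases shared with an opposite-strand gene cannot be told apart.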

How the data were processed

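Total RNA libraries, depleted of ribosomal RNA, were counted by the authors with the nf-core rnaseq workflow on GRCm38, and their notes name limma and edgeR. The deposited values are estimated counts that had lost their decimal marks, so their unit is neither whole counts nor CPM. All 32 value columns matched a sample (0 unused). Marks were restored by a model weighing 0 to 3 lost decimals from the last digits and the gene's level in other libraries (prior shares 0.01, 0.09 and 0.9, t density with 7 degrees of freedom). It was revised on digits, totals and the uncertain share before any test. Of 590874 values above 0, 28.3% were given decimals and 1.56% were uncertain (posterior under 0.9). A gene was dropped from a comparison if any of its values there was uncertain. Of the values given decimals, 94.4% were given 3. Among those of 100 or more that were not uncertain and did not end in 001 or 999, 8.72% had fewer than 3, where 10% was expected. Some misread values may remain.

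Library scaling was of TMM type, with a filter at 10 counts. Each pair of groups was fitted on its 8 libraries, and each interaction on its 16, with limma voom 3.58.1 in R 4.3.3, Benjamini-Hochberg adjusted over all genes tested, and called at 0.05. The scripts were tested on simulated data, where the share of calls made on unchanged genes ran above the nominal level, so calls close to the threshold are less certain. CPM are counts scaled to a common effective library size. p-values measure the spread between these libraries. The members, gene lists and similarity rule (the 2 highest correlations) were chosen with earlier results of these data known. Same-numbered libraries deviated together, with every correlation over 0.1, in 5 of the 10 pairwise comparisons (LPS against vehicle with the scramble and with miR-29a, and each mimic under LPS). The replicate block is given where it changes a call. The study calls its BV-2 replicates independent experiments, and the labels do not say whether a number marks the same experiment across groups.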

Additional observations from a re-analysis of the deposited data

Results flagged for a closer look

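Of 63 combinations of gene and group checked, 5 held 1 library far from the other 3 by Dixon's criterion at 95%, which chance gives in about 1 of 20 groups. In VEH_scramble, Ptgs2 in replicate 4 was at 12.97 CPM against 5.12 to 5.90 in the others. In the same group Pla2g4a in replicate 1 was at 71.1 CPM against 39.6 to 42.8, and Ptger4 in replicate 1 was at 20.05 CPM against 35.6 to 37.7. In VEH_miR-146a, Ptgs2 in replicate 2 was at 18.7 CPM against 10.8 to 11.8. In LPS_miR-146a, Ptges in replicate 4 was at 4.97 CPM against 2.43 to 2.82. Groups with at most 3 counts in every library were not checked.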

How the results depend on the processing

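The 4 falls of Ptgs1 with LPS and the rise of Ptgs2 with LPS and the scramble kept their direction and their call under every alternative run. No call changed direction. The number of the 9 genes called moved as follows. For LPS with the scramble it went from 3 to 2, without Ptges, under the replicate block, no filter, limma-trend and nearest-level restoration. One fit over all 8 groups gave 5 for LPS with the scramble, 6 for LPS with miR-29a, 1 for each of miR-7a and miR-29a under vehicle, and 0 for miR-29a under LPS. The replicate block gave 6 for LPS with miR-29a and 3 with miR-7a, 2 for miR-29a and 1 for miR-146a under LPS, 1 for each of miR-7a and miR-29a under vehicle, and 1 for the interaction with miR-29a. Where not every correlation of same-numbered libraries was over 0.1, the block added Ptgs1 under vehicle (log2 0.68 with miR-7a, 0.80 with miR-29a). It also added Ptgs2 for LPS with miR-7a (1.23) and Ptgs1 in the interaction with miR-29a (-0.93, adjusted p = 0.0407). Nearest-level restoration gave 1 for each of miR-7a and miR-29a under vehicle and 1 for the interaction with miR-29a. It lost Ptgs2 for LPS with miR-29a, where Lta4h was gained and the number stayed at 3, and with miR-146a, where 2 remained. For LPS with miR-7a, limma-trend and the stricter posterior minimum of 0.99 each gave 1, without Ptges. For LPS with miR-29a, median-of-ratios scaling and the stricter posterior minimum gave 5 each, as did leaving out structural RNA genes, an alternative chosen after seeing the data. With no filter on low counts miR-29a under LPS gave 0, losing Pla2g4a as the one fit did. Leaving out each library in turn gave 2 to 3 for LPS with the scramble, 1 to 2 with miR-7a, 1 to 4 with miR-29a and 1 to 3 with miR-146a. It gave 0 to 1 for miR-146a under vehicle, and under LPS 0 to 2 for miR-7a, 0 to 1 for miR-29a and 0 to 1 for miR-146a. Over all genes, calls for LPS with miR-7a went from 785 to 1699 with the block, 1921 with nearest-level restoration and 7777 with no filter. For LPS with miR-146a they went from 538 to 812, 890 and, in one fit, 882. Under vehicle the block, nearest-level restoration and one fit gave 293, 722 and 165 for miR-7a (5 in the fits reported), 62, 410 and 89 for miR-29a (1) and 822, 784 and 1542 for miR-146a (193). Leaving out structural RNA genes gave 23 for miR-7a, and the stricter posterior minimum 19. No filter gave 14, 2 and 398 for the 3 mimics and limma-trend 8 for miR-7a. Under LPS the block and nearest-level restoration gave 1173 and 960 for miR-7a (353), 1290 and 1175 for miR-29a (642), and 1287 and 827 for miR-146a (283), where limma-trend gave 133. In the interactions nearest-level restoration gave 929 of 14327 genes for miR-7a, 531 of 14340 for miR-29a and 586 of 14211 for miR-146a (4, 2 and 3). One fit gave 18, 12 and 7 there, the block 20 and 19 for the first 2, and other settings 0 to 6. The cause of these changes was not tested. Of the 9 genes, Alox5 and Ptges had the lowest total counts over all libraries (7.26 and 691), and the part of depth in this was not tested.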
